A study of Homo sapiens with 2 samples.

Results

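The transcripts of the heat shock proteins and of their DNAJ co-chaperones were followed in KG1 cells with and without silencing of T-bet. Members were all genes whose symbol in the platform annotation begins with HSPA, HSPB, HSPD, HSPE, HSPH, HSP90 or DNAJ, which gave 81 symbols on 187 probe sets. Of these symbols, 74 had at least 1 probe set of their own (173 probe sets), against 19775 such genes on the whole array, and the other 7 appear only on probe sets that the annotation lists under several genes. The prefixes also take in HSPBP1 and HSPBAP1, which are not small heat shock proteins, and 5 antisense or divergent RNAs named after a neighbouring member.

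KG1 is a human acute myeloid leukaemia cell line. Cells were electroporated with 1.98 µg of either siRNA-Tbet, directed against the messenger RNA of T-bet (gene TBX21), a transcription factor of type 1 immunity, or the control siRNAc; both groups then rested for 5 h and received IL-18 at 10 ng/ml for 12 h. Each group is 1 culture on 1 Affymetrix array, so every difference below compares 2 arrays without a replicate and carries no p-value. Electroporation and IL-18 were shared by both groups, and cells without either were not analysed here.

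Heat shock proteins are molecular chaperones that bind unfolded proteins. HSP70 proteins (the HSPA family) clamp a client by an ATP cycle, DNAJ proteins (HSP40) deliver the client and trigger ATP hydrolysis through their J domain, and HSPH proteins exchange the nucleotide. HSP90 proteins finish the folding of kinases and receptors, HSPD1 and HSPE1 form the folding chamber of mitochondria, and small HSPB proteins hold unfolded clients without ATP. Heat and other protein-damaging stresses induce part of them through the transcription factor HSF1, which binds repeats called heat shock elements, while others are made constantly.

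Heat shock elements were looked for in the RefSeq promoter windows of GRCh38.p14, each from 250 bases before to 50 bases after a gene's start, as GAA, any 2 bases, TTC, any 2 bases and GAA, or as the same pattern with GAA and TTC exchanged, on either strand (matches may overlap). Of the 73 members with a window, 7 held a match (9.59%), against 0.608% of all 27305 genes with a window. They were DNAJA1, DNAJB6, HSP90AA1, HSP90AB1, HSPA6, HSPA8 and HSPD1. The 4 below are shown because they hold the element and lie on both sides of the comparison, with HSPA6 lower and the other 3 higher with siRNA-Tbet at their brightest probe set; each is the 250 bases before the start, and capitals mark the element. For a gene with several starts, the matching window was taken. The windows lie at chr14:102087045-102087294 (minus strand), chr6:44247693-44247942 (plus strand), chr2:197499841-197500090 (minus strand) and chr1:161524290-161524539 (plus strand).
HSP90AA1: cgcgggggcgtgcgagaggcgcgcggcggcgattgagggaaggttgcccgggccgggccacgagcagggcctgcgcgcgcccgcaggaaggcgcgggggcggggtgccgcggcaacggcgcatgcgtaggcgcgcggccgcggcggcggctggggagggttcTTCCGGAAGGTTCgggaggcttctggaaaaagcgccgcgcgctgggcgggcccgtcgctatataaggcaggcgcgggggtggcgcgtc
HSP90AB1: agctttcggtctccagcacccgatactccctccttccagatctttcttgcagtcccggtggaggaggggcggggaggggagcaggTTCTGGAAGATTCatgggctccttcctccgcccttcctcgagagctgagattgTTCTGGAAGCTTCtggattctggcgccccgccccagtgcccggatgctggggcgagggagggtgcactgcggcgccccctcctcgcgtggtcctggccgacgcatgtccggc
HSPD1: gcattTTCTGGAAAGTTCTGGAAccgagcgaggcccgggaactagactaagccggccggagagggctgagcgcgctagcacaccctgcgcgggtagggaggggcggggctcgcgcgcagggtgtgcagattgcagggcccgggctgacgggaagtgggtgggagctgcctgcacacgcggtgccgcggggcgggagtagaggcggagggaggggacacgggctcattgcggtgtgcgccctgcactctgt
HSPA6: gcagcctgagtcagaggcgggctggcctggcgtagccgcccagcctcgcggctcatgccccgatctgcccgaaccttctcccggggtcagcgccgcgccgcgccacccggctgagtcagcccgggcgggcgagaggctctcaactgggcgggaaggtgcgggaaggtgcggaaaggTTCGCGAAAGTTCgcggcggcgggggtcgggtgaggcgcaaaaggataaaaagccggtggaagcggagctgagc
In HSP90AB1 the first of 2 separate matches starts 165 bases before the start, in HSP90AA1 the match starts 88 bases before it and in HSPA6 74 bases before it. HSPD1 holds 2 overlapping matches, the first 245 bases before the start. The T-box half-site AGGTGTGA, searched on both strands, was found for 2 of the 73 members (2.74%), HSP90B1 and HSPA4L, against 1.21% of all genes. The CCAAT box was found for 32 of the 73 members (43.8%), against 39.7% of all genes. For each motif, a gene with several windows was counted if any of them matched. A match is a description of these letters and does not show that a factor bound there. A missing match covers only this pattern in this window, so elements of another form or farther away are not seen.

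The deposited values are MAS5 signals, linear fluorescence summaries in arbitrary units. Signals under a common floor of 146, the higher of both array medians, were raised to it, and a gene counted as measured when a probe set of its own exceeded the floor on at least 1 array. Each measured gene was read by its brightest such probe set, avoiding those with the suffix _x_at, whose probes can cross-hybridise, where another was measured. The second-brightest probe set, used further below, was ranked by the same rule, so a brighter _x_at probe set could be passed over. All differences are log2 ratios of siRNA-Tbet over siRNAc. The targeted transcript TBX21 gave 1839 with siRNA-Tbet and 3581 with siRNAc (log2 ratio -0.96), in the direction of the labels, and IFNG, a T-bet target, had 31243 and 35136 (-0.17). Among 9 markers of KG1 and early myeloid cells, 8 were measured. CD34 was bright at 17130 and 15839, FLT3 was dim at 253 and 248, and KIT stayed under the floor at 62 and 29. At their representative probe sets, 7 of the 8 were higher with siRNA-Tbet, from FLT3 (0.02) to GATA2 (0.45), while PTPRC was lower (-0.06). Sides varied within genes: SPN, counted as higher (0.17), had -0.71, -0.27 and -0.47 at its other measured probe sets, and PTPRC had 0.16, 0.17 and -0.37. The signals of all 9 summed to 112633 with siRNA-Tbet and 99103 with siRNAc, and their part in the results below was not tested. CD34, GATA2, HLA-DRA, MYB and PTPRC lay in the brightest of 10 classes of genes ordered by signal. In that class 65.7% of all genes were higher, so the sum does not show more cells or RNA of this kind. The brightest probe sets of 3 B cell, 4 epithelial, 4 fibroblast and 3 hepatocyte markers stayed at or under 530, 319, 610 and 158 on both arrays. CD34 lay far above these bounds, while FLT3 and KIT did not stand out from such markers. The 3' to 5' signal ratio of the array's GAPDH control was 0.975 with siRNA-Tbet and 1.01 with siRNAc.

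The chaperone genes as a whole lay on both sides of 0. Of the 58 measured members, 30 had a higher and 28 a lower signal with siRNA-Tbet, where 46.5% of all 12309 measured genes were higher and 53.5% were lower. Their median log2 ratio was 0.0093, against -0.02 over all measured genes. The members' ratios ran from -0.73 to 0.42, with quartiles of -0.12 and 0.10, and those of all genes had quartiles of -0.16 and 0.11. At a fixed fold of 1.5, 0 members were higher (background 2.04%) and 2 were lower (background 2.92%), namely HSPA6 and the noncoding DNAJC3-DT; with median scaling, quantile normalization or the signal trend removed, HSPA6 was under 1.5-fold and the count was 1. At a fold of 1.2, 4 were higher (background 10.4%) and 6 lower (background 14.9%). These shares lie near those of the array as a whole.

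**Figure D1:**
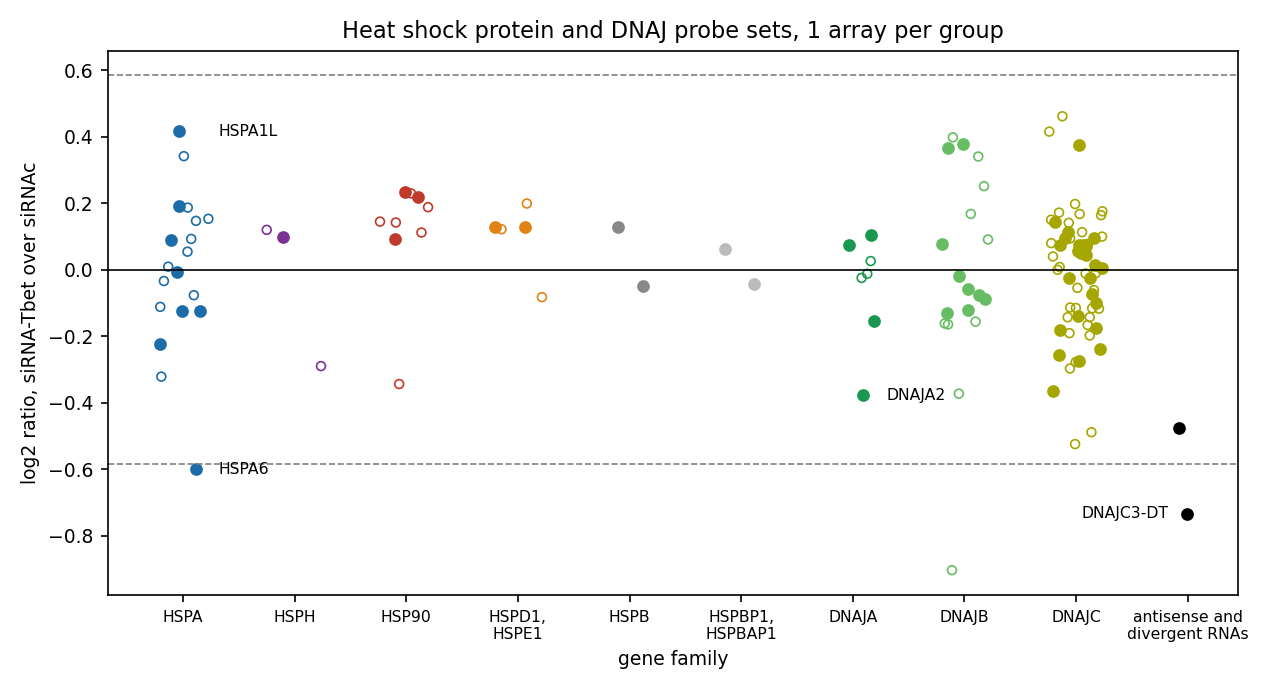
Log2 ratio of siRNA-Tbet over siRNAc (vertical axis) for the 128 measured probe sets of single members, by gene family (horizontal axis); filled points are the probe set that stands for a gene, open points its other measured probe sets, and dashed lines mark a fold of 1.5. The filled points of the HSP90 and HSPD1/HSPE1 columns lie above 0, those of the HSPA and DNAJ columns lie on both sides, and HSPA6 and DNAJC3-DT are the filled points under the lower line.

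The only yardstick of error in these files is the disagreement between probe sets of 1 gene. It was taken from the SD, over genes, of the gap between the 2 brightest probe sets, with _x_at ones ranked last. That SD was scaled to 1 probe set. It ran from 0.18 on the log2 scale among bright genes to 0.44 among dim ones over 10 classes of equal size ordered by signal, and it holds no variation between cultures or arrays. Of the 58 members, 47 (81.0%) lay within 1 such spread of the median of their signal class, against 76.6% of all genes. DNAJA2 alone lay more than 2 spreads away, where 3.56% of all genes do. The classes follow the brightest probe set, so the spread of a bright class also holds the error of dimmer second probe sets. In the brightest class the quartiles of all genes, -0.04 and 0.11, lay within 1 spread (0.18) of the class median of 0.04. Lying within 1 spread is thus common to most genes and does not show a lack of difference.

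The HSP70 genes measured by probe sets of their own did not share a direction. Of the 8 measured HSPA genes, 3 were higher and 5 lower (median -0.07). With median scaling, quantile normalization or the signal trend removed, 4 were higher and 4 lower.  HSPA5, the endoplasmic reticulum HSP70 also called BiP, gave 41069 with siRNA-Tbet against 35920 with siRNAc, a signal 14.3% higher. Its log2 ratio of 0.19 was matched by 0.19 at its second probe set (1063 and 933). Both readings of BiP thus lie on the same side. HSPA9, the mitochondrial HSP70 called mortalin, had 11610 and 10916 (log2 ratio 0.09). Its other measured probe sets had 0.09 and -0.08, so 2 of 3 were higher. HSPA1L, a testis-enriched HSP70, lay near the floor with 195 and 137, at least 1.33-fold higher. The spread of a single probe set in its signal class was 0.38.

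HSPA6, the strictly stress-inducible HSP70 known as HSP70B', was the only heat shock protein gene past 1.5-fold, at 335 with siRNA-Tbet and 508 with siRNAc (1.52-fold lower, log2 ratio -0.60). It passed that fold narrowly, and under the 3 other scalings its log2 ratio lay between -0.576 and -0.580, under 1.5-fold. Its second probe set went the other way, at 404 and 363 (0.15). The gene has a close relative, HSPA7, that the probes may also read, so its level is uncertain. The probe sets of this gene therefore give no common direction, and its brightest one lies -1.56 spreads from the median of its signal class.

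HSPA13, a microsomal HSP70, had signals of 3221 and 3758 (-0.22) on one probe set and 2042 and 2029 (0.0095) on the other. HSPA4, a nucleotide exchange factor of the HSP110 kind, had 6587 and 7172 (-0.12), and its other probe sets ran from -0.32 to 0.15. HSPA14, which acts on ribosomes with DNAJC2, had 4238 and 4616 (-0.12), with 0.05 and -0.11 at the others. HSPA4L, a relative of HSPA4, had 1312 and 1319 (-0.0080) and 1084 and 855 (0.34). The brightest probe set of each of these 4 genes lay within 1 spread of the median of its signal class. HSPA12A, HSPA12B and HSPA2 stayed under the floor on both arrays.

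The best known HSP70 genes, HSPA8 and the pair HSPA1A and HSPA1B, are read only by probe sets that the annotation lists under more than 1 gene, so no value can be given to a single one of them. The 4 probe sets listed jointly under HSPA8, SNORD14C and SNORD14D, the latter small nucleolar RNAs, had log2 ratios of 0.13, 0.14, 0.15 and 0.24. Their signals reached 68724 and 61741, near the highest values on the arrays (69760 and 62673). All 4 lay above 0, but with the signal trend removed they were at 0.0018, 0.0033, 0.02 and 0.12. The 2 probe sets listed under HSPA1A and HSPA1B together had 13907 and 13966 (-0.0061) and 1851 and 2157 (-0.22), while a probe set listed under both and HSPA1L had 5550 and 4737 (0.23). These 3 readings of the heat-inducible HSP70 loci disagree in direction. Over all 13 measured joint probe sets, 9 were higher and 4 lower. The same share over the array's joint probe sets was not computed. Of all genes measured by probe sets of their own, 46.5% were higher.

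HSPH1, the HSP110 exchange factor of the cytosol, had 18690 with siRNA-Tbet and 17467 with siRNAc (0.10). Its cross-hybridising probe set had 0.12, and a dimmer one at 631 and 771 had -0.29. The bright and the dim readings of HSPH1 therefore fall on opposite sides.

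All 3 HSP90 genes had higher signals with siRNA-Tbet, by 6.65% to 17.7%; with the signal trend removed or after quantile normalization HSP90AA1 was on the lower side. HSP90AA1, the inducible cytosolic form, was read by 4 probe sets, with signals of 53030 and 49725, 50816 and 46038, 45032 and 39517, and 42004 and 35812. Their log2 ratios were 0.09, 0.14, 0.19 and 0.23. HSP90AB1, the constitutive cytosolic form, was read by 3 probe sets, with 52348 and 44481, 48877 and 45220, and 47906 and 43321. Their log2 ratios were 0.23, 0.11 and 0.15. Among the 22 members read by at least 3 probe sets, HSP90AA1 and HSP90AB1 alone had every reading on 1 side. The same share over all genes was not computed. All probe sets of both genes lay over 30000 units, where 167 of all 172 genes were higher, so this agreement does not set them apart. With the signal trend removed, the HSP90AA1 readings ran from -0.02 to 0.13 and those of HSP90AB1 from 0.0009 to 0.12. HSP90B1, the endoplasmic reticulum form called GRP94, is read alone only by cross-hybridising probe sets, at 14606 and 12560 (0.22) and at 599 and 760 (-0.34). Probe sets listed under HSP90B1 and MIR3652 together had 34390 and 33821 (0.02) and 15892 and 12881 (0.30). The HSP90 genes have many processed pseudogenes, which such probe sets may also read.

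The mitochondrial chaperonin pair showed the same small difference. HSPD1, the HSP60 barrel, had 56891 with siRNA-Tbet and 51998 with siRNAc on its brightest probe set (0.13). Its other measured probe sets had 0.20, -0.08 and 0.12. HSPE1, the HSP10 lid, had 38672 and 35373 (0.13) on its only probe set. Both differences, of 9.41% and 9.32%, were 0.0086 and 0.03 on the log2 scale with the signal trend removed, and after quantile normalization HSPD1 was at -0.0094 and HSPE1 at 0.0043. A probe set listed under MOB4 and the readthrough HSPE1-MOB4 had 10088 and 11722 (-0.22).

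The ratios of these bright chaperones were set beside those of other genes of like signal. Over 30000 units, 6 members were measured (HSP90AA1, HSP90AB1, HSPD1, HSPE1, HSPA5 and DNAJA1), and 6 of 6 were higher with a median log2 ratio of 0.13. Of all 172 genes over 30000 units, 167 were higher, with a median of 0.12 and quartiles of 0.09 and 0.16. The array's own actin and GAPDH controls, at 42560 to 57840 units, had log2 ratios from 0.12 to 0.18. The bright chaperones thus lay among the other bright genes. In the brightest signal class as a whole, 10 of 11 members were higher, against 65.7% of its 1231 genes; the exception was DNAJB11.

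**Figure D2:**
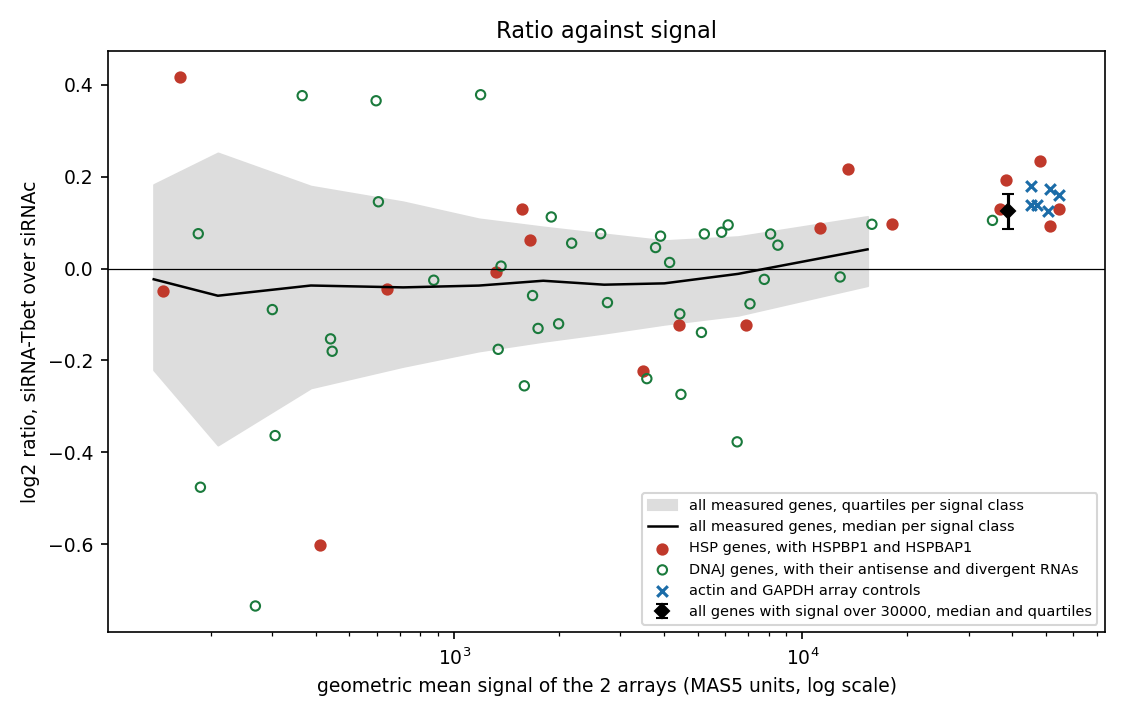
Log2 ratio of siRNA-Tbet over siRNAc (vertical axis) against the geometric mean signal of both arrays (horizontal axis, log scale) for the 58 measured members, with the median and quartiles of all measured genes per signal class, the median and quartiles of the 172 genes over 30000 units, and the array controls. The line climbs from -0.01 to 0.04 over the last 2 classes, and the 6 brightest members and the controls sit around the diamond at 0.12.

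Of the 7 small heat shock protein genes with a probe set of their own, 2 were measured. HSPB1, known as HSP27, had 1639 with siRNA-Tbet and 1498 with siRNAc (0.13) on 1 probe set. HSPB8, a partner of BAG3, had 141 and 151, at the floor. HSPB2, HSPB3, HSPB6, HSPB7 and HSPB9, several of them known from muscle, gave no signal above 125 with siRNA-Tbet or 103 with siRNAc. The lower floor at the 25th percentile let 6 HSPB genes in, with a median of 0.42 in place of 0.04. HSPBP1, an HSP70 exchange factor taken in by its name, had 1685 and 1615 (0.06), and HSPBAP1, which binds HSPB1, had 633 and 653 (-0.04).

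DNAJ genes were evenly split, with 19 of 38 measured genes higher and 19 lower and a median of -0.0064. In the DNAJA family, whose members are full-length J proteins with a zinc-binding region, 2 of 4 were higher, and 1 of 4 after quantile normalization. DNAJA1, the main cytosolic partner of HSPA8, had 36445 with siRNA-Tbet and 33889 with siRNAc (0.10), and 12531 and 12744 (-0.02) on a second probe set; after quantile normalization the first was at -0.0070. DNAJA3, the mitochondrial form known as Tid1, had 8317 and 7894 (0.08) and 4463 and 4501 (-0.01). DNAJA2, a cytosolic partner of HSPA8, had the largest difference among the bright DNAJ genes, at 5699 and 7402 (1.30-fold lower, -0.38). That value stayed between -0.36 and -0.37 under the 3 other scalings. The second probe set of DNAJA2 had 3486 and 3423 (0.03) and does not share the difference. DNAJA4 had 419 and 465 (-0.15).

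The DNAJB family had 3 of 9 measured genes higher and 6 lower (median -0.06), and 4 and 5 with median scaling. DNAJB1, the heat-inducible HSP40, had 6024 with siRNA-Tbet and 5702 with siRNAc (0.08) and 3949 and 3317 (0.25), so both of its probe sets were higher. DNAJB12, which anchors HSP70 at the endoplasmic reticulum membrane, had 1358 and 1044 (1.30-fold higher, 0.38) on its brightest probe set. Its other probe sets had -0.16, -0.16 and 0.40, so 2 of 4 were higher. DNAJB2, which sends clients to the proteasome, had 677 and 526 (0.37) on its only probe set. DNAJB6, which blocks the aggregation of polyglutamine proteins, had 6884 and 7260 (-0.08), and 2 probe sets listed under DNAJB6 and TMEM135 together had 0.28 and 0.03. DNAJB4 had 1664 and 1821 (-0.13) and 1133 and 895 (0.34).

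Other DNAJB members of the endoplasmic reticulum were DNAJB11, DNAJB9 and DNAJB14. DNAJB11, the BiP cofactor ERdj3, had 12753 with siRNA-Tbet and 12916 with siRNAc (-0.02). DNAJB9, the BiP cofactor ERdj4, had -0.12, 0.09 and -0.16 at its 3 probe sets, and DNAJB14 had -0.06, -0.37 and 0.17. In both, readings fall on either side of 0. DNAJB13, a protein of sperm and cilia, was dim, with 291 and 310 (-0.09) on one probe set and 158 and 296 (1.87-fold lower, -0.90) on the other. DNAJB13, HSPA6 and DNAJC3-DT held all 3 of the 128 measured member probe sets past 1.5-fold, and all were lower; over the array's probe sets of single genes, 2.87% were as much higher and 3.23% as much lower. DNAJB5, DNAJB7 and DNAJB8 stayed under the floor.

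The DNAJC family, which shares only the J domain, had 14 of 25 measured genes higher and 11 lower, with a median of 0.01, and 0 genes past 1.5-fold. DNAJC18 had 417 with siRNA-Tbet and 321 with siRNAc (0.38), with 0.15 and -0.17 at its other probe sets. DNAJC5B, a relative of the vesicle protein DNAJC5, had 270 and 347 (-0.36) near the floor. DNAJC6, the neuronal auxilin that uncoats clathrin vesicles, had 4073 and 4924 (1.21-fold lower, -0.27) on its only measured probe set. DNAJC24, which takes part in diphthamide synthesis, had 1455 and 1737 (-0.26) and a dim second probe set at 88.5 and 159, so both were lower. DNAJC7, which also binds HSP90, had 3290 and 3884 (-0.24), with 0.17 and -0.14 at the others. No DNAJC gene with 3 or more measured probe sets had all of them on 1 side.

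Several of the brighter DNAJC genes differed little at the probe set that stands for them. DNAJC9, a histone co-chaperone, had 16370 with siRNA-Tbet and 15312 with siRNAc (0.10), with -0.06 and 0.46 at its other probe sets. DNAJC2, the ribosome-bound partner of HSPA14, had 8653 and 8353 (0.05). DNAJC12, a co-chaperone of aromatic amino acid hydroxylases, had 7709 and 7836 (-0.02), with 0.04 and 0.17 at the others. DNAJC3, the ER protein known as p58IPK that restrains the kinase PERK, had 4888 and 5382 (-0.14), with -0.49, -0.11 and 0.42 at the others. DNAJC10, an ER disulfide reductase, had 5366 and 5093 (0.08), and 3 of its 4 measured probe sets were higher. The remaining 15 measured DNAJC genes had log2 ratios from -0.18 (DNAJC17) to 0.15 (DNAJC27). DNAJC28 and DNAJC5G stayed under the floor, and DNAJC25 is listed only together with DNAJC25-GNG10, at 565 and 710.

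Of the 5 antisense and divergent RNAs, DNAJC3-DT, transcribed away from the start of DNAJC3, had 208 with siRNA-Tbet and 346 with siRNAc (1.66-fold lower, -0.73). DNAJC9-AS1 had 158 and 220 (-0.48). Both are dim, in the signal class where the spread of a single probe set was 0.44. DNAJC27-AS1, DNAJB8-AS1 and HSPA2-AS1 stayed under the floor on both arrays. A second probe set of DNAJC3-DT was under the floor too, at 18.5 and 5.25.

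Probe sets of the same chaperone gene often disagreed. Of the 40 members with 2 or more measured probe sets, 9 (22.5%) had all on the same side of 0, against 41.4% of the 6140 such genes on the array. A common side is harder to reach with more probe sets, and 22 of the 40 had 3 or more. The 6140 genes were not matched for that number, so these shares are not directly comparable. Of the 9, 7 were higher (DNAJB1, DNAJC16, DNAJC19, DNAJC30, HSP90AA1, HSP90AB1 and HSPA5) and 2 lower (DNAJB13 and DNAJC24). The brightest and second-brightest probe sets of a gene were paired, with _x_at ones ranked last. For HSPH1 the second reading was thus -0.29, although a brighter _x_at probe set had 0.12. The log2 ratios of the pairs had a Pearson r of -0.08 across the 40 genes and of 0.15 across the 6140. These values share both arrays and describe genes, not replicates. In 17 of the 40 (42.5%) both lay on the same side, against 56.1% of all pairs.

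**Figure D3:**
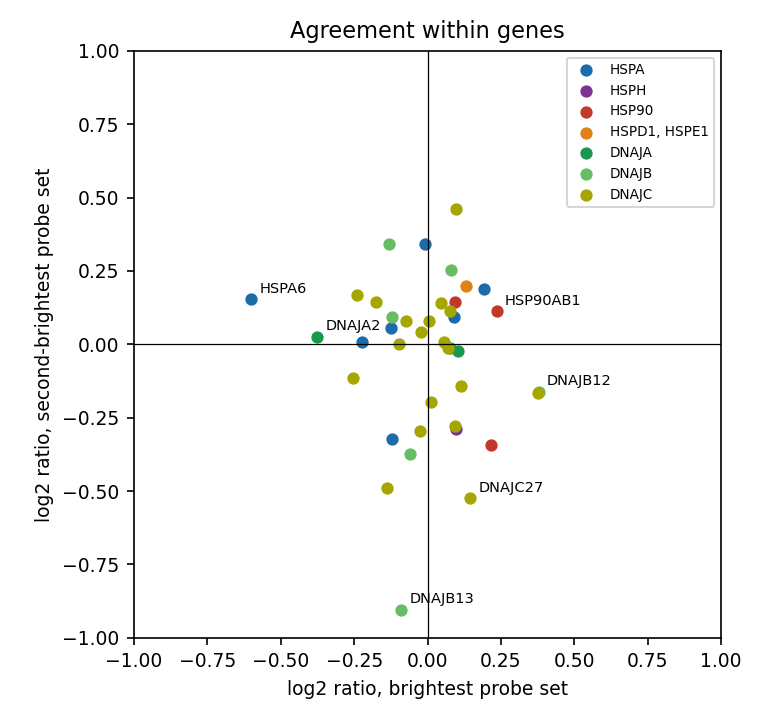
Log2 ratio of siRNA-Tbet over siRNAc at the brightest (horizontal axis) and second-brightest (vertical axis) measured probe set of the 40 members that have both, coloured by family. Probe sets with the suffix _x_at were ranked last. Points fill all 4 quadrants; HSP90AB1 lies in the upper right, HSPA6 and DNAJA2 left of 0 with a second reading above it, and DNAJB12 and DNAJC27 right of 0 with a second reading under it.

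Grouped by where the proteins work, every group had members on both sides of 0, and the group medians ran from -0.12 to 0.08. Of 9 measured mitochondrial members, 7 were higher and 2 lower (median 0.08). Of 9 heat-inducible cytosolic members, 5 were higher (median 0.08), and of 12 in the endoplasmic reticulum 6 were higher (median -0.0064). Of 8 constitutive cytosolic members, 2 (HSP90AB1 and DNAJB2) were higher and 6 lower (median -0.12); HSPA8, read only jointly, is not among them. The nuclear members had 4 of 5 higher (median 0.05) and the vesicle members 3 of 5 (median 0.08). The 6 measured members with a match to the heat shock element had a median of 0.10. The 47 measured members with a window but no match, DNAJB1, HSPH1 and HSPE1 among them, had 0.01. With the signal trend removed these medians were -0.0079 and 0.03. Members without a match may still hold an element, so the split does not separate genes with and without one.

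The partners of these chaperones outside the naming rule were read from 4 lists. Of 33 measured co-chaperones and HSF factors, 26 were higher and 7 lower (median 0.06), in a list whose signal classes had a median of -0.03. With the signal trend removed the list's median was 0.06. The lowest was SUGT1, at 7863 with siRNA-Tbet and 9899 with siRNAc (-0.33). Its other probe sets were lower too, at -0.01, -0.23, -0.18 and -0.35. The member past 1.5-fold was SEC63, a J protein of the endoplasmic reticulum translocon, at 6320 with siRNA-Tbet and 4193 with siRNAc (1.51-fold higher, 0.59). Its other probe sets had 0.57, 0.46, 0.50 and -0.31, so 4 of 5 were higher. HSF1 had 4140 and 3895 (0.09). BAG3, an inducible HSP70 exchange factor, had 3547 and 4073 (-0.20), and CDC37, which brings kinases to HSP90, had 6362 and 5260 (0.27).

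Of 14 measured genes of the cytosolic chaperonin TRiC and prefoldin, 12 were higher and 2 lower (median 0.10), in a list whose signal classes had a median of 0.04; with the signal trend removed the list's median was 0.04. The range ran from URI1 (-0.24) to PFDN1 (0.33). Other endoplasmic reticulum chaperones split 9 to 12 towards lower (median -0.01). EDEM1, which directs misfolded glycoproteins to degradation, had 3922 and 6250 (1.59-fold lower, -0.67), and ERN1, the stress sensor IRE1, had 366 and 200 (1.83-fold higher, 0.87), with 0.56 and -0.06 at its other probe sets. Of 13 other mitochondrial chaperones and proteases, 7 were higher and 6 lower (median 0.0024), from CLPB (-0.31) to CLPP (0.36). The corresponding share over all measured genes was 46.5% higher.

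**Figure D4:**
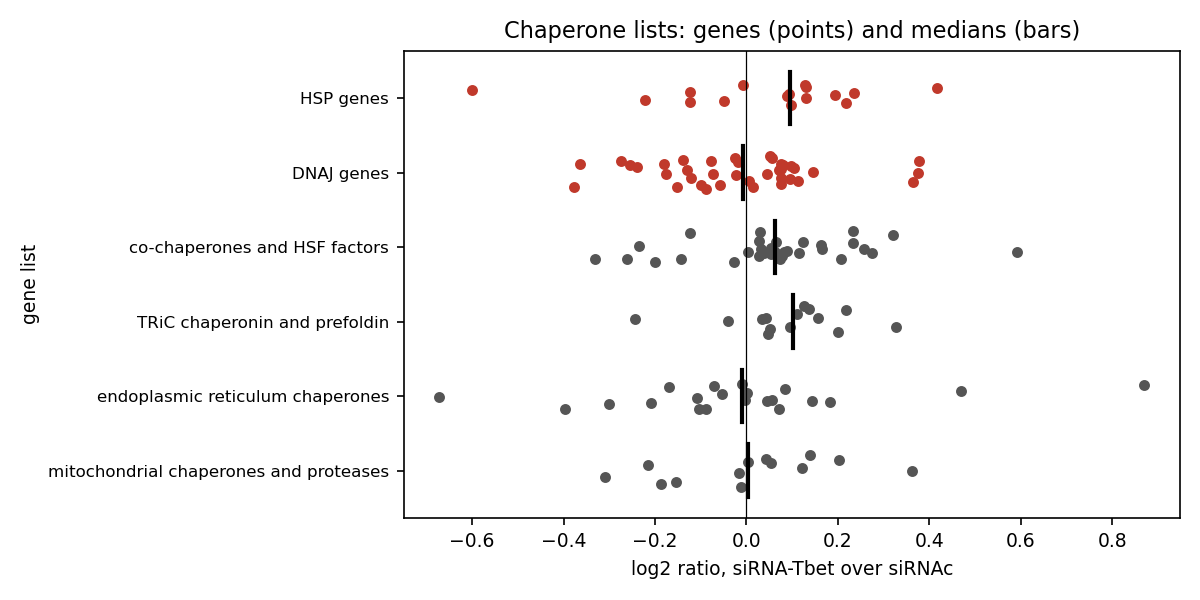
Log2 ratio of siRNA-Tbet over siRNAc (horizontal axis) for measured genes of the HSP and DNAJ families and of 4 lists of their partners (vertical axis); points are genes at their representative probe set and bars the medians. The bars lie between -0.01 and 0.10, and the points farthest from 0 are EDEM1 at -0.67 and ERN1 at 0.87.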

How the data were processed

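Per the labels, 2 KG1 cultures were profiled, 1 array each. The authors deposited linear signal intensity values, 1 per probe set, made with MAS5 per the submitters' processing notes; no source used here gives its version. Both deposited columns had a 2% trimmed mean near 1000, so they were used without further scaling. Names came from the platform annotation (41097 with 1 gene, 1801 with several, 11777 unnamed here), and 62 control probe sets were kept apart. Intensities were floored at 146, and ratios, counts and medians were computed with pandas 2.3.3 and a lowess trend (span 0.3) with statsmodels 0.14.6. Fold calls were run on simulated data with less noise than the probe set spread here and with 2-fold shifts in brighter genes only. That run checks the code and not calls near 1.5-fold or in dim genes. Folds to the floor are lower bounds. In bulk RNA, fewer cells of a kind and less RNA per cell cannot be told apart. Named with values are all measured HSP genes, DNAJ genes past 1.5-fold or among the 8 brightest, and members whose 3 or more probe sets agree in side, with further DNAJ genes chosen after their values were seen. The plan for a partner list was to name genes past 1.5-fold, or else the highest and lowest. HSF1, BAG3, CDC37 and SUGT1 were named beyond it. The members, lists and motifs were chosen with earlier results of these data known. Alternatives were 3 scalings, 4 floors, 4 probe set choices and 2 folds.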

Additional observations from a re-analysis of the deposited data

How the results depend on the processing

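With 1 array per group no array could be left out, and no paired analysis was possible because each group has 1 sample. The members' median log2 ratio ran from -0.053 to 0.051 over all settings; it turned negative after quantile normalization (-0.0071) and with only plain probe sets (-0.053, 46 genes), where the share of members above 0 was 37.0% in place of 51.7%. The count at least 1.5-fold lower was 2 in the main setting. It was 1 with median scaling (background 2.67%), after quantile normalization (2.70%) and with the lowess trend removed (2.63%). HSPA6 was the gene lost in each. The count was also 1 with the median over probe sets (2.35%) and 1 of 40 members with second-brightest probe sets (3.36%). A 25th-percentile floor gave 4 of 71 members (background 10.5%) and a 75th-percentile floor 0 of 43 (0.586%). The count was 6 at a fold of 1.2 (14.9%) and 0 at a fold of 2 (0.325%). The count of higher genes, 0 in the main setting, became 6 of 71 members under the 25th-percentile floor, where the background was 10.5%. At a fold of 1.2 it was 4 (background 10.4%). HSPA6 was on the higher side with its second probe set (0.15). Scaling left 56 (median), 54 (quantile) and 56 (lowess) of 58 members on their side of 0, whereas second-brightest probe sets left 17 of 40. The cause was not tested. Dim signals and the single array per group limit every value.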
